A study of Mus musculus with 12 samples.

Results

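The transcripts of matrix metalloproteinases, ADAMTS proteases, their TIMP inhibitors and the lysyl oxidases were followed in subcutaneous mouse tumors. All symbols named Mmp, Adamts, Timp1 to Timp4 or Lox and Loxl1 to Loxl4 in the deposited tables were taken, which gave 51 of the 34678 symbols listed. These were 23 Mmp, 19 Adamts, 4 Timp and 5 Lox genes. A mean of at least 0.1 FPKM (a fragment count scaled by transcript length and library size) over the 12 tumors was reached by 36 of them, against 15350 of all symbols, and these 36 were tested. The tumors grew from LLC1-shLkb1, a Lewis lung carcinoma line carrying a short hairpin RNA against Lkb1, so every arm shared the knockdown and no tumor with intact Lkb1 was included. The hosts were C57BL/6 mice aged 5 to 8 weeks, and treatment started 7 days after the cells were injected under the skin and ran for 2 weeks. Each of the 4 arms held 3 tumors. The vehicle arm received control IgG, the palbociclib arm received this CDK4/6 inhibitor by mouth at 100 mg/kg, the anti-PD-1 arm received the checkpoint antibody at 200 µg per mouse, and the combination arm received both. The labels do not say whether the tumors of an arm came from separate mice, so p-values measure the spread between these tumors only.

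Metalloproteinases are zinc enzymes that cut collagens, gelatin, laminin and other matrix proteins, and most are secreted as inactive precursors. Membrane-type members stay on the cell surface, where Mmp14 activates pro-Mmp2 with the help of Timp2. ADAMTS proteases trim procollagens and cleave versican and other large proteoglycans. TIMPs bind the active site of these enzymes and block them. Lysyl oxidases act on the other side of matrix turnover by oxidizing lysines in collagen and elastin so that the fibers become cross-linked. In tumors these genes are read in cancer cells, fibroblasts and infiltrating myeloid cells, and the FPKM of a whole tumor cannot tell fewer cells of a type from less RNA per cell.

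The depth estimated from the steps between low FPKM values was 14900000 to 20300000 fragments per tumor. Markers of the alveolar lineage were nearly absent, with Nkx2-1 and Sftpc listed at 0 in all 12 tumors and Napsa at 1.07 to 2.5 FPKM, and of the epithelial markers Epcam reached 1.81 FPKM at most while Krt8 lay between 62.0 and 276 FPKM. Some tumors carried transcripts of neighboring tissue. The sum of 4 adipocyte markers was 139 FPKM in combination 1 and 55.8 FPKM in palbociclib 1, the sum of 4 keratinocyte markers was 356 FPKM in palbociclib 2, and the sum of 5 skeletal muscle markers was 147 FPKM in palbociclib 3 and 143 FPKM in combination 2. Vehicle 1 also held 51.1 FPKM of the muscle markers. The tumors with the highest sums all received palbociclib, and the part of such tissue in the values below was not tested beyond the refit named where it applies.

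The module was led by an inhibitor and a membrane protease. Summed over each family, the Mmp genes gave 101 to 194 FPKM per tumor, the Timp genes 85.1 to 114 FPKM, the Adamts genes 40.9 to 52.3 FPKM and the Lox genes 24.6 to 42.3 FPKM. In each family 1 gene held a large share of the sum. Timp2 supplied 70.9% of the Timp sum, Loxl3 52.1% of the Lox sum, Mmp14 44.1% of the Mmp sum and Adamts14 31.3% of the Adamts sum. By mean level the order was Timp2 at 69.5 FPKM, Mmp14 at 55.8 FPKM, Timp1 at 27.2 FPKM, Mmp3 at 19.2 FPKM, Mmp2 at 16.3 FPKM and Loxl3 at 16.2 FPKM. The ranges of Timp2 and Mmp14 overlapped, although Timp2 was above Mmp14 in each of the 12 tumors, and every Mmp14 value was above every Timp1 value. From Timp1 to Loxl3, each range overlapped that of the next gene in the order. The 15 genes below 0.1 FPKM were Timp4, Mmp7, Mmp16, Mmp17, Mmp20, Mmp21, Mmp24, Adamts3, Adamts8, Adamts13, Adamts16, Adamts17, Adamts18, Adamts19 and Adamts20. The highest of these was Timp4, a TIMP known from heart and fat, with a mean of 0.0457 FPKM and its top value of 0.321 FPKM in combination 1, the tumor with the most adipocyte marker RNA. Mmp21 was listed at 0 in every tumor.

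**Figure D1:**
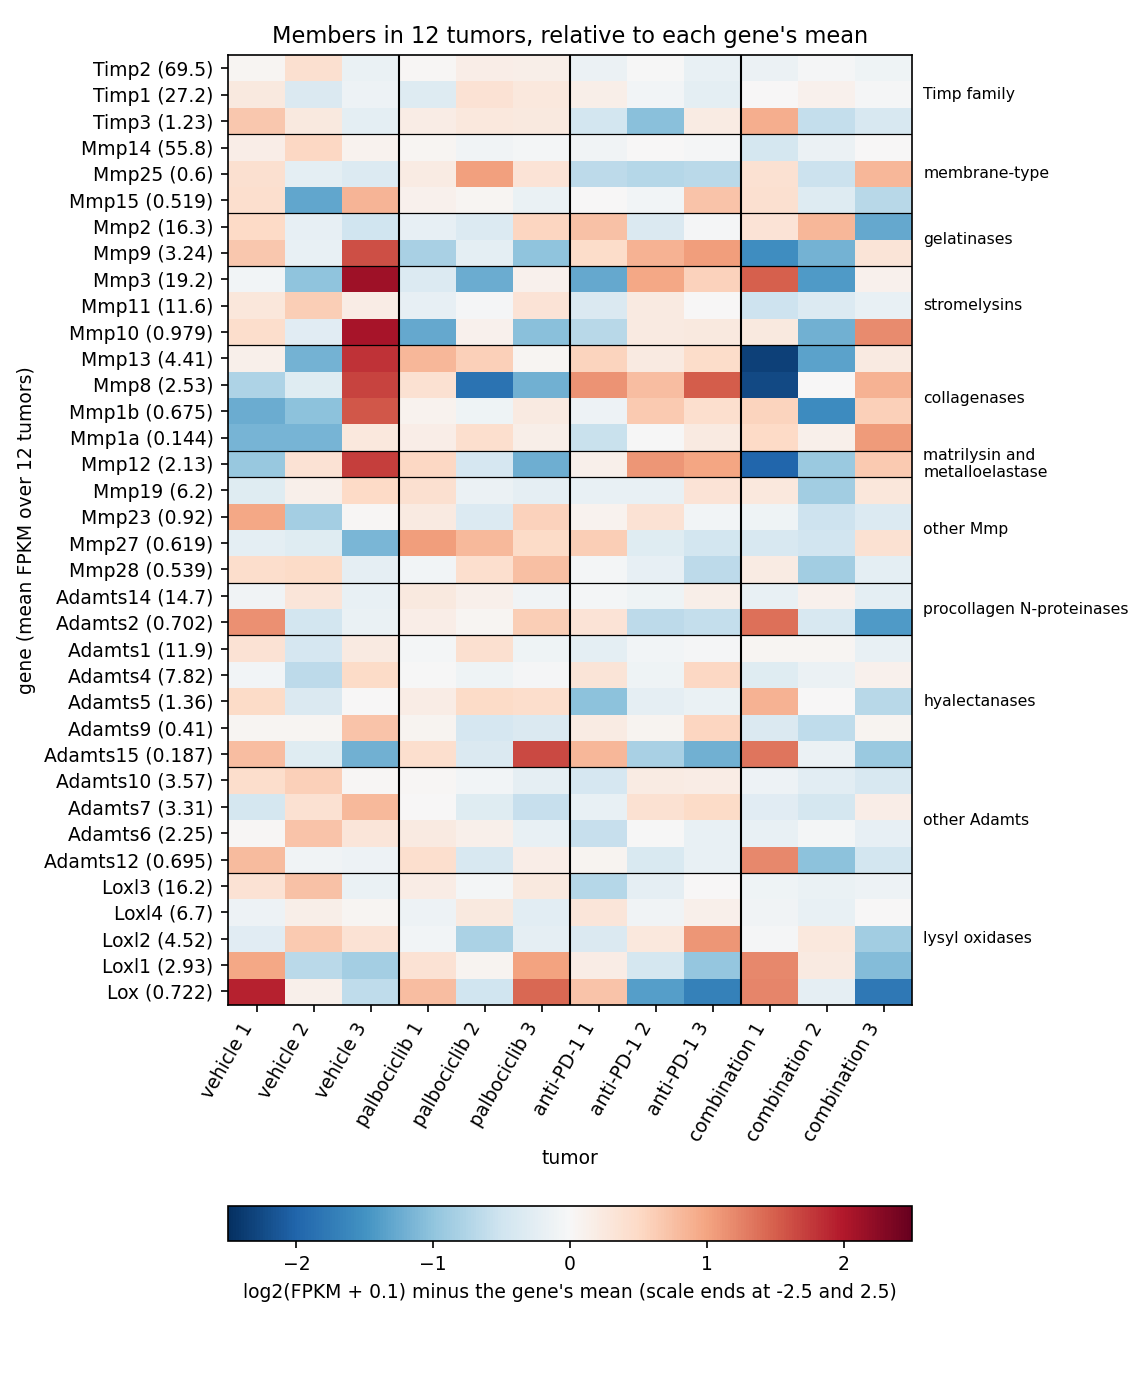
Heatmap of the 36 tested genes (rows, grouped by role, with the mean FPKM in brackets) in the 12 tumors (columns, 3 per arm). Color gives log2(FPKM + 0.1) minus the gene's mean over all tumors, and the red block in vehicle 3 covers Mmp3, Mmp10, Mmp13, Mmp8, Mmp1b and Mmp12 while Timp2, Mmp14, Loxl4 and Adamts14 stay near white in most tumors.

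The members varied widely between tumors of the same arm. The within-arm SD on the log2(FPKM + 0.1) scale had a median of 0.516 over the 36 members and of 0.239 over the 15350 genes tested. Among genes with a mean of at least 1 FPKM the medians were 0.426 for 23 members and 0.193 for 11187 genes. The steadiest members were Timp2 with an SD of 0.157, Mmp14 with 0.164, Loxl4 with 0.184 and Adamts14 with 0.189. The least steady were Lox with 1.29, Mmp3 with 1.28 and Mmp8 with 1.20. Vehicle 3 was the highest of the 12 tumors for 11 of the 36 members, compared with 6.5% of all genes tested, and these 11 were Mmp1b, Mmp3, Mmp8, Mmp9, Mmp10, Mmp12, Mmp13, Mmp15, Mmp19, Adamts7 and Adamts9. Vehicle 2 was the highest for 7 members, compared with 18.4% of all genes, and these were Timp2, Mmp14, Adamts6, Adamts10, Adamts14, Mmp11 and Loxl3. Combination 1 was the highest for 5 members, compared with 9.6% of all genes, and these were Loxl1, Adamts2, Adamts5, Adamts12 and Timp3.

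Among the inhibitors, Timp2 read 71.5, 91.6 and 61.5 FPKM in the vehicle tumors, 70.6, 77.1 and 76.3 FPKM with palbociclib, 62.7, 68.1 and 61.0 FPKM with anti-PD-1, and 62.4, 67.3 and 64.0 FPKM with the combination. The arms overlapped apart from palbociclib, whose 3 tumors were all above those of the anti-PD-1 and combination arms. Timp1, an inducible TIMP with growth factor activity, read 31.8, 21.0 and 24.8 FPKM in vehicle tumors, 21.7, 34.6 and 32.5 FPKM with palbociclib, 29.8, 25.6 and 22.8 FPKM with anti-PD-1, and 27.1, 28.9 and 26.4 FPKM with the combination. Its arms overlapped throughout. Timp3, which is held in the matrix, was lower at 0.502 to 2.25 FPKM. Its longest overlap with another gene is 1733 exonic bases of Syn3 on the opposite strand, and the Syn3 mean was 0.0053 FPKM. Whether reads of the shared bases were assigned by strand is not stated in the sources used here.

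Mmp14 (chr14:54431612-54445364, plus strand, GRCm38), the membrane collagenase that also activates pro-Mmp2, read 61.9, 78.8 and 58.7 FPKM in vehicle tumors, 57.0, 52.2 and 53.3 FPKM with palbociclib, 51.7, 55.8 and 54.3 FPKM with anti-PD-1, and 40.9, 49.7 and 55.4 FPKM with the combination. Every treated tumor was below every vehicle tumor, the nearest being 57.0 against 58.7 FPKM. The share of all genes with this pattern was not counted, and 22.5% of all genes tested did not overlap between combination and vehicle alone. Nor was a share counted for the arm separations given for Timp2, Mmp25, Mmp27 and Adamts5, or for Adamts10 with palbociclib against vehicle. The other detected membrane-type genes were far lower. Mmp25, a leukocyte membrane protease anchored by a lipid, read 0.747, 0.442 and 0.409 FPKM in vehicle tumors, 0.640, 1.22 and 0.716 FPKM with palbociclib, 0.310, 0.291 and 0.304 FPKM with anti-PD-1, and 0.740, 0.345 and 1.04 FPKM with the combination. The 3 anti-PD-1 tumors held the lowest values of all 12. Mmp15 ranged from 0.134 to 0.941 FPKM.

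The gelatinases differed from each other in pattern. Mmp2, a gelatinase made mainly by stromal cells, read 21.4, 13.1 and 10.6 FPKM in vehicle tumors, 13.2, 11.9 and 22.1 FPKM with palbociclib, 25.1, 11.8 and 14.8 FPKM with anti-PD-1, and 19.1, 26.9 and 6.17 FPKM with the combination, so its highest and lowest tumors were in the same arm. Mmp9 (chr2:164940780-164955850, plus strand), a gelatinase stored in neutrophil granules and also made by macrophages and tumor cells, read 4.22, 2.30 and 8.21 FPKM in vehicle tumors and 1.44, 2.20 and 1.25 FPKM with palbociclib. With anti-PD-1 it read 3.63, 4.85 and 5.52 FPKM, and with the combination 0.823, 1.09 and 3.30 FPKM. The palbociclib tumors were all below the vehicle tumors and the combination tumors all below the anti-PD-1 tumors, but the nearest tumors on either side, 2.20 against 2.30 FPKM and 3.30 against 3.63 FPKM, lay close together.

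**Figure D2:**
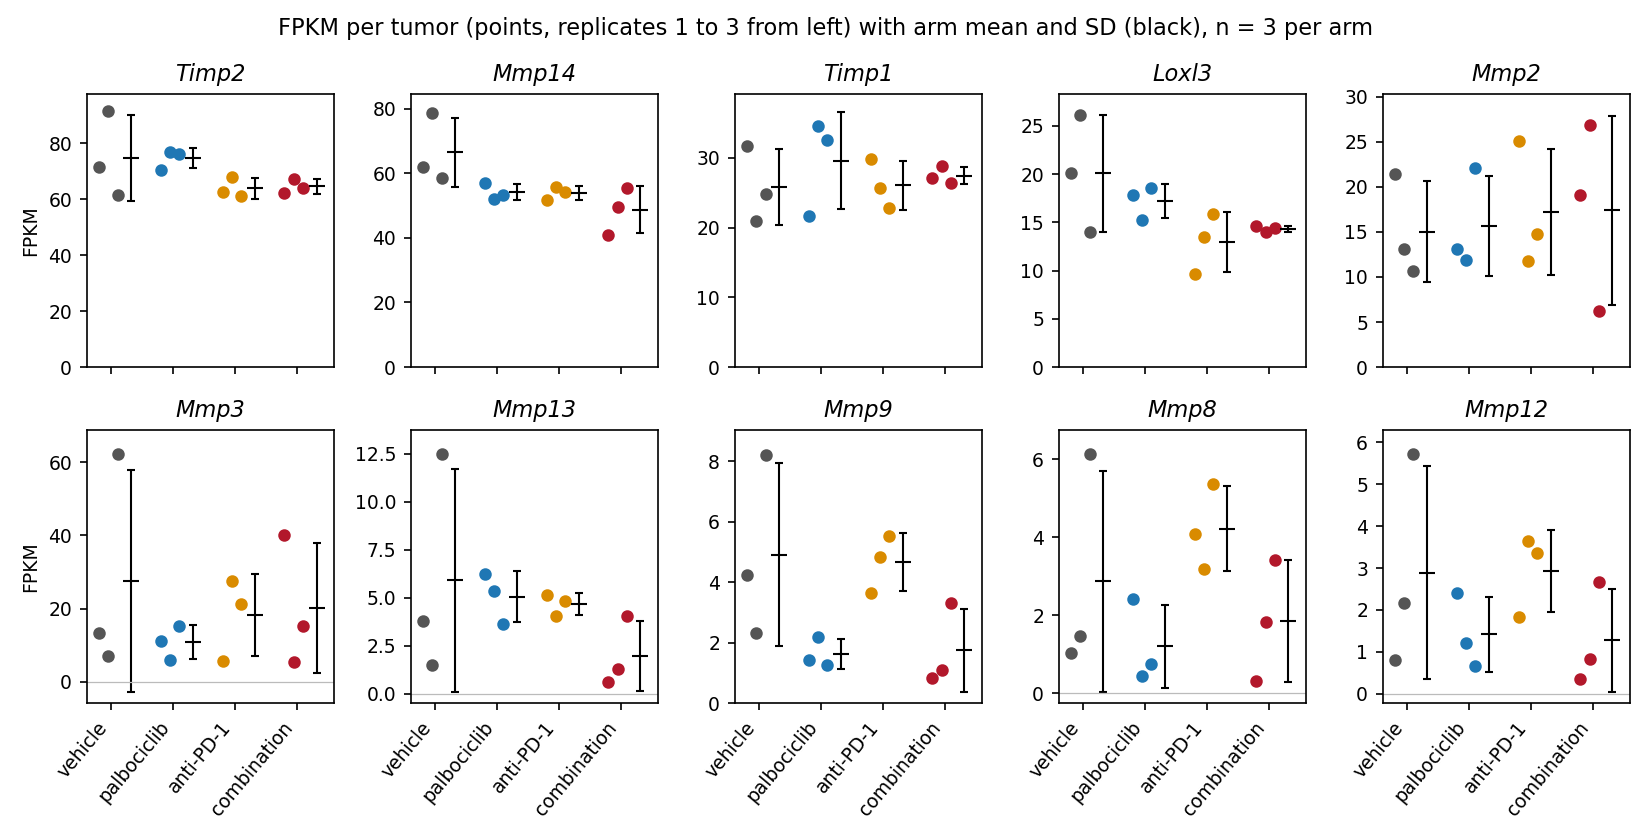
FPKM of 10 members in each tumor (points, replicates 1 to 3 from left to right within an arm) with the arm mean and SD in black, n = 3 per arm, on linear axes. Timp2, Mmp14 and Timp1 keep narrow ranges, whereas Mmp3, Mmp13, Mmp8, Mmp9 and Mmp12 are highest in vehicle 3 and Mmp9 is lower in both palbociclib-treated arms.

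Of the stromelysins, Mmp3 has a broad range of substrates and activates other pro-Mmps. It read 13.4, 7.0 and 62.3 FPKM in vehicle tumors, 11.2, 5.91 and 15.2 FPKM with palbociclib, 5.75, 27.6 and 21.2 FPKM with anti-PD-1, and 40.0, 5.28 and 15.2 FPKM with the combination. The highest tumor was 11.8 times the lowest, and each arm had a tumor at 7.0 FPKM or below, so the arms overlapped. Mmp10 followed at a lower level, with its highest value of 3.47 FPKM again in vehicle 3. Mmp11, which is activated inside the cell by furin and is usually stromal, behaved differently. Its values were 13.7, 17.4 and 12.9 FPKM in vehicle tumors, 9.76, 11.1 and 14.3 FPKM with palbociclib, 8.74, 13.3 and 11.4 FPKM with anti-PD-1, and 7.84, 8.91 and 9.89 FPKM with the combination, the last all below the vehicle arm. Mmp11 shares 155 exonic bases with Chchd10 on the opposite strand.

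Among the collagenases, which open the triple helix of fibrillar collagen, Mmp13 read 3.79, 1.48 and 12.5 FPKM in vehicle tumors, 6.25, 5.33 and 3.61 FPKM with palbociclib, 5.16, 4.05 and 4.84 FPKM with anti-PD-1, and 0.607, 1.31 and 4.06 FPKM with the combination. Mmp8, the neutrophil collagenase, read 1.03, 1.45 and 6.13 FPKM in vehicle tumors, 2.41, 0.439 and 0.738 FPKM with palbociclib, 4.09, 3.20 and 5.37 FPKM with anti-PD-1, and 0.305, 1.83 and 3.42 FPKM with the combination. Both were lowest in combination 1 and highest in vehicle 3. Mmp1a and Mmp1b, grouped with the collagenases by name, were scarce, at 0 to 0.366 FPKM and 0.121 to 1.84 FPKM. Mmp1a, which the GENCODE annotation lists as a polymorphic pseudogene, was 0 in vehicle 1 and vehicle 2. Mmp12, the macrophage metalloelastase, read 0.804, 2.16 and 5.72 FPKM in vehicle tumors, 2.40, 1.21 and 0.655 FPKM with palbociclib, 1.82, 3.64 and 3.36 FPKM with anti-PD-1, and 0.345, 0.820 and 2.67 FPKM with the combination. Mmp12 and Mmp1b share 157 exonic bases on opposite strands.

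Of the remaining Mmp genes, Mmp19 read 4.89, 6.56 and 8.55 FPKM in vehicle tumors, 7.94, 5.42 and 5.15 FPKM with palbociclib, 5.25, 5.25 and 7.65 FPKM with anti-PD-1, and 7.20, 3.26 and 7.33 FPKM with the combination, and it overlaps 789 exonic bases of Tmem198b on the opposite strand. Mmp27 was low, at 0.452, 0.434 and 0.195 FPKM in vehicle tumors, 1.26, 1.04 and 0.808 FPKM with palbociclib, 0.906, 0.429 and 0.378 FPKM with anti-PD-1, and 0.399, 0.372 and 0.751 FPKM with the combination. The palbociclib tumors were all above the vehicle and combination tumors for Mmp27. Mmp23 and Mmp28 stayed between 0.233 and 1.78 FPKM.

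A run of 10 Mmp genes lies within 427 kb on mouse chromosome 9 (chr9:7272514-7699585, GRCm38) in the order Mmp13, Mmp12, Mmp1b, Mmp3, Mmp1a, Mmp10, Mmp8, Mmp27, Mmp20 and Mmp7, and 8 of them passed the level of 0.1 FPKM. Of these 8, vehicle 3 was the highest tumor for Mmp13, Mmp12, Mmp1b, Mmp3, Mmp10 and Mmp8, whereas for Mmp27 it was the lowest. Because neighbors that were high in the same tumor were a main feature of these data, their proximal promoters were compared. The letters TGANTCA, where N is any base, the site of AP-1 (dimers of Fos and Jun proteins), were searched on both strands from 250 bases before to 50 bases after each start in the RefSeq promoter table for GRCm38. They were found at 8 of the 10 cluster genes, at 0 of 23 other members in that table and at 8.97% of 27025 genes. The ETS core AGGAAG, searched on both strands, can share at most an end base with that site and shared none here, and was found at 7 of the 10, 8 of the 23 and 38.42% of all genes. The stretches from 110 bases before the start up to the start are shown for the 8 tested cluster genes, 5′ to 3′ on the strand of the gene and with the AP-1 site in capitals, because the site lies in a similar place in several neighbors. They cover chr9:7272404-7272513 for Mmp13, chr9:7347264-7347373 for the internal start of Mmp12, chr9:7388027-7388136 for Mmp1b, chr9:7445712-7445821 for Mmp3, chr9:7464031-7464140 for Mmp1a, chr9:7502232-7502341 for Mmp10, chr9:7558319-7558428 for Mmp8 and chr9:7571286-7571395 for Mmp27, all on the plus strand except Mmp1b.
Mmp13: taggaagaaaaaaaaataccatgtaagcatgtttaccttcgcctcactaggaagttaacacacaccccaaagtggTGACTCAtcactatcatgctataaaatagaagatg
Mmp12: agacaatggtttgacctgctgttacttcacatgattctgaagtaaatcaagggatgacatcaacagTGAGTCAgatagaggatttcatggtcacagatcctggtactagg
Mmp1b: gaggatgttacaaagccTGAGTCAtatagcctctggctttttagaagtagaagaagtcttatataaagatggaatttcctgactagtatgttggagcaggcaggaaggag
Mmp3: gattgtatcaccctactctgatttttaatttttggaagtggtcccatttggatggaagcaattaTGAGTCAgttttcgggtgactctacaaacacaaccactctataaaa
Mmp1a: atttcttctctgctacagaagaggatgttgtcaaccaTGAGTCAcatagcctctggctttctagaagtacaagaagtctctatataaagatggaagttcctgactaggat
Mmp10: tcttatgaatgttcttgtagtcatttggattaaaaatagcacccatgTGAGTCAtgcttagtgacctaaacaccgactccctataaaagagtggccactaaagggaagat
Mmp8: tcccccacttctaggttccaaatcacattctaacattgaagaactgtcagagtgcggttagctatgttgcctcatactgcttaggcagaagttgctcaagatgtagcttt
Mmp27: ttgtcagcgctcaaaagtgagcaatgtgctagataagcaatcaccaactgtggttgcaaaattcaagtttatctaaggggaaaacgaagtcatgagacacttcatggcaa
The site began 46 bases before the start in Mmp3, 63 in Mmp10, 35 in Mmp13, 73 in Mmp1a and 93 in Mmp1b. For Mmp12 it was present only at the internal start, 44 bases before it, and not at the start that opens the gene. Mmp8 and Mmp27 held no match in these windows. Vehicle 3 had the highest Mmp8 and the lowest Mmp27, and Mmp1a, which holds the site, was highest in combination 3. Mmp20 and Mmp7 also hold the site but were below 0.1 FPKM, and each was above 0 in only 1 tumor. A relation between the site and the levels was not tested.

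**Figure D3:**
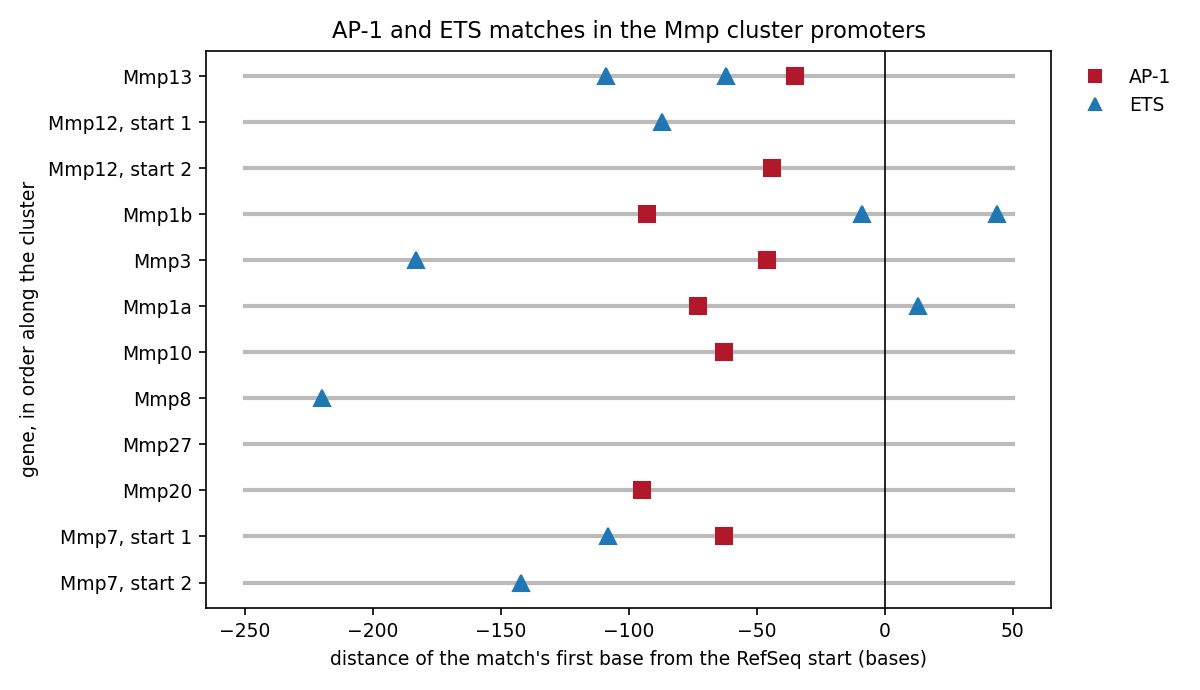
Positions of AP-1 (red squares) and ETS (blue triangles) matches relative to the RefSeq start, in bases, for the 10 Mmp genes of the chromosome 9 run in their order along the chromosome; Mmp12 and Mmp7 have 2 starts each. AP-1 matches lie between 95 and 35 bases before the start, and Mmp8 and Mmp27 show none.

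The ADAMTS genes were led by Adamts14, a procollagen N-proteinase that removes the amino-terminal extension of fibrillar procollagens. It read 13.7, 18.0 and 12.9 FPKM in vehicle tumors, 17.2, 15.9 and 13.8 FPKM with palbociclib, 14.2, 13.6 and 16.3 FPKM with anti-PD-1, and 12.8, 15.7 and 12.4 FPKM with the combination. Adamts2, the best known enzyme of that activity, was far lower, at 1.44, 0.403 and 0.521 FPKM in vehicle tumors, 0.684, 0.620 and 0.963 FPKM with palbociclib, 0.785, 0.343 and 0.358 FPKM with anti-PD-1, and 1.71, 0.429 and 0.160 FPKM with the combination. Its highest and lowest tumors were thus both in the combination arm. Among the proteoglycan-cleaving members, Adamts1 read 15.0, 8.71 and 13.8 FPKM in vehicle tumors, 11.4, 15.6 and 10.8 FPKM with palbociclib, 9.87, 11.1 and 11.4 FPKM with anti-PD-1, and 12.2, 12.2 and 10.3 FPKM with the combination. Adamts4, an aggrecanase, lay between 4.79 and 11 FPKM. Adamts5, the other main aggrecanase, read 1.81, 0.970 and 1.29 FPKM in vehicle tumors, 1.47, 1.82 and 1.78 FPKM with palbociclib, 0.575, 1.08 and 1.13 FPKM with anti-PD-1, and 2.41, 1.28 and 0.755 FPKM with the combination. The 3 palbociclib tumors of Adamts5 were all above the anti-PD-1 tumors. Adamts10, a protease that binds fibrillin microfibrils, read 4.79, 5.29 and 3.58 FPKM in vehicle tumors, 3.55, 3.33 and 2.97 FPKM with palbociclib, 2.59, 4.02 and 3.97 FPKM with anti-PD-1, and 3.20, 2.90 and 2.62 FPKM with the combination. No palbociclib or combination tumor reached the vehicle range for Adamts10, the nearest being 3.55 against 3.58 FPKM. Between combination and vehicle alone 22.5% of all genes tested did not overlap, and the share for both arms was not counted.

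The lysyl oxidases were led by Loxl3, which read 20.1, 26.2 and 14.0 FPKM in vehicle tumors, 17.9, 15.3 and 18.6 FPKM with palbociclib, 9.60, 13.5 and 15.8 FPKM with anti-PD-1, and 14.6, 14.0 and 14.4 FPKM with the combination. Loxl3 shares 535 exonic bases with Htra2 on the opposite strand, and the Htra2 mean was 11.5 FPKM. Loxl4 was nearly level, from 5.55 to 8.22 FPKM. Loxl2, which also acts inside the nucleus, read 3.41, 6.66 and 5.42 FPKM in vehicle tumors, 4.0, 2.40 and 3.57 FPKM with palbociclib, 3.26, 5.06 and 9.11 FPKM with anti-PD-1, and 4.10, 5.03 and 2.24 FPKM with the combination. Lox, the founding enzyme of the family, was low and uneven, at 2.16, 0.557 and 0.284 FPKM in vehicle tumors, 0.926, 0.325 and 1.53 FPKM with palbociclib, 0.883, 0.132 and 0.0869 FPKM with anti-PD-1, and 1.29, 0.414 and 0.0745 FPKM with the combination. The tumors highest for Lox and Loxl1 were also high for Col1a1, the main chain of type I collagen. Col1a1 read 58.0, 5.13 and 3.54 FPKM in vehicle tumors, 9.12, 6.08 and 36.3 FPKM with palbociclib, 17.7, 1.70 and 2.09 FPKM with anti-PD-1, and 22.6, 10.1 and 0.685 FPKM with the combination. The sum of 8 fibroblast markers, all 8 of them tested, ran from 106 to 150 FPKM in vehicle, 113 to 283 FPKM in palbociclib, 69.4 to 112 FPKM in anti-PD-1 and 129 to 235 FPKM in combination tumors. The markers did not move together. In log2(FPKM + 0.1), averaged over palbociclib minus vehicle and combination minus anti-PD-1, Dpt differed by 1.02, Dcn by 0.77, Lum by 0.27, Thy1 by 0.25 and Fap by 0.03. Pdgfra differed by -0.44, Pdgfrb by -0.59 and Pdpn by -0.49, and limma adjusted p over the 8 ran from 0.107 to 0.946. The part of fibroblast content in the Lox and Loxl1 values was not tested.

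No member passed the test in any treatment comparison. Differences are given on the log2(FPKM + 0.1) scale, which understates the change of low genes, from limma fitted across 15350 genes, and a call needs a Benjamini-Hochberg adjusted p under 0.05. For palbociclib against vehicle 0 of 36 members were called, where 0.143% of all genes were, and 3 members had an unadjusted p under 0.05, where 13.8% of all genes did. For anti-PD-1 against vehicle 0 members were called (0% of all genes) and 3 passed the unadjusted level (8.40%). For the combination against vehicle 0 members were called (0.0130%) and 6 passed the unadjusted level (17.0%). The combination against palbociclib gave 0 called members (0.00651%) and 2 at the unadjusted level (4.52%), and the combination against anti-PD-1 gave 0 (0.00651%) and 3 (11.8%). The members' shares at the unadjusted level were close to or below the background in the comparisons with vehicle.

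The palbociclib effect, the mean of palbociclib minus vehicle and combination minus anti-PD-1, used all 12 tumors and asked what the drug did with and without the antibody. Here 0 members were called (0.313% of all genes) and 9 of 36 had an unadjusted p under 0.05 (20.5% of all genes), 3 of them higher and 6 lower. The number at that level ran from 3 to 11 over the processing alternatives and left-out tumors. Of the 36 members 13 lay above and 23 below 0, where 40.2% of all genes tested lay below. The median difference over the 36 members was -0.08 and over all genes tested 0.06. In the refit without 4 treated tumors high in adipocyte, keratinocyte or muscle markers, these medians were -0.115 and 0.051. That refit left a single tumor in the palbociclib and combination arms, so no count of calls is drawn from it. Mmp9 had the smallest p of the module, with a difference of -1.49 (SE 0.36, 95% interval -2.28 to -0.71) and an adjusted p of 0.0846 in limma. By an exact permutation test of the 400 relabelings within strata, two-sided, its p was 0.005, the smallest this design can give. That p is not adjusted for the choice of Mmp9 out of 36 members. Mmp9 was the only member whose arms did not overlap in either stratum, a pattern shown in either direction by 2.83% of all genes tested. This pattern by itself fixes the permutation p at 0.005, so the 2 are not separate results. Leaving out anti-PD-1 replicate 1 brought its adjusted p to 0.0494, and over the 22 alternatives the difference stayed negative with adjusted p from 0.0494 to 0.499.

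The other members at the unadjusted level in the palbociclib effect were Mmp25 (difference 0.75, SE 0.25), Mmp1a (0.81, SE 0.31), Mmp27 (0.61, SE 0.26), Adamts9 (-0.54, SE 0.20), Adamts10 (-0.35, SE 0.14), Mmp11 (-0.32, SE 0.13), Mmp14 (-0.22, SE 0.09) and Mmp8 (-1.34, SE 0.59), with limma adjusted p between 0.15 and 0.235. The main inhibitors stayed within narrow bounds. For Timp2 the difference was 0.02 with a 95% interval of -0.18 to 0.21, for Timp1 0.13 with -0.16 to 0.43, and for the N-proteinase Adamts14 -0.01 with -0.24 to 0.22. The intervals were much wider for Mmp3 (-1.83 to 0.96), Mmp13 (-1.77 to 0.44), Mmp12 (-2.29 to 0.05) and Lox (-1.11 to 1.73), so a change of 2-fold or more in either direction was within the bounds for Lox and not detectable at this spread.

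**Figure D4:**
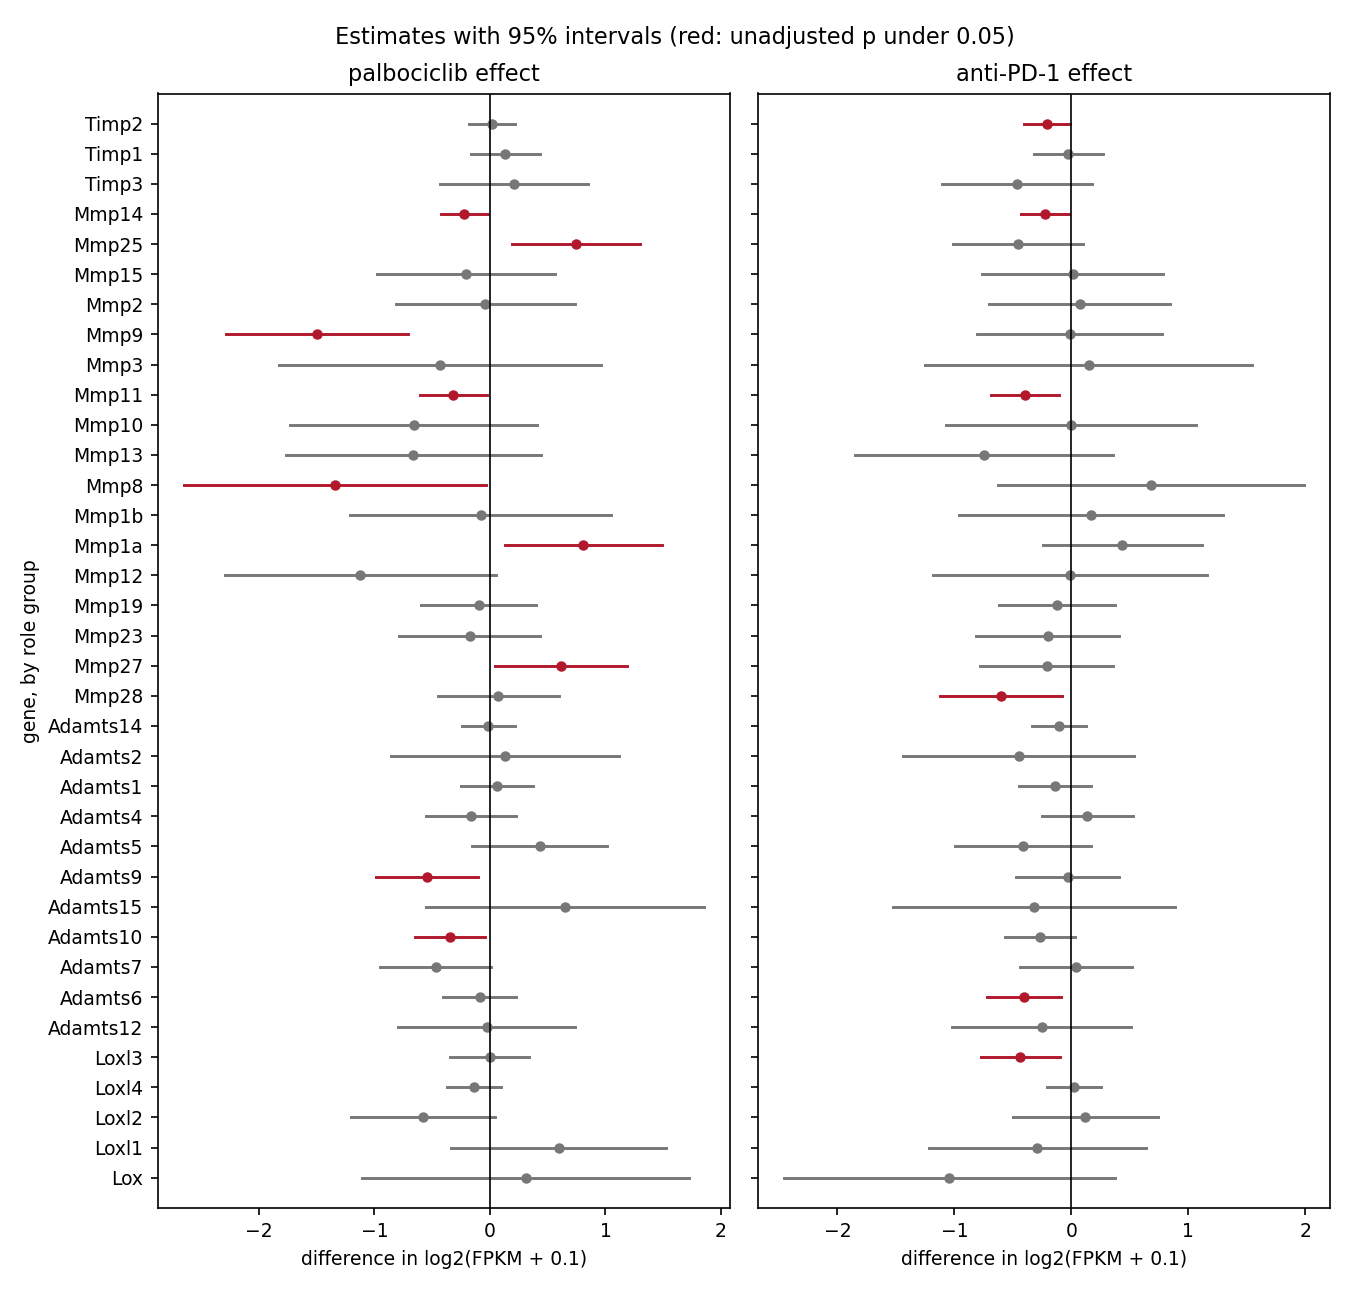
Difference in log2(FPKM + 0.1) with its 95% interval for the 36 tested members, by role group, for the palbociclib effect (left) and the anti-PD-1 effect (right), each over 12 tumors; red marks an unadjusted p under 0.05 and no member had an adjusted p under 0.05. Mmp9 at -1.49 lies farthest from 0 on the left, and on the right the 6 red members all lie below 0.

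The anti-PD-1 effect, the mean of anti-PD-1 minus vehicle and combination minus palbociclib, gave 0 called members (0% of all genes) and 6 at the unadjusted level (6.77% of all genes), all 6 lower. Over the processing alternatives and left-out tumors that number ran from 3 to 10. These were Mmp11 (difference -0.39, SE 0.13), Loxl3 (-0.44, SE 0.16), Adamts6 (-0.40, SE 0.14), Mmp28 (-0.60, SE 0.24), Mmp14 (-0.23, SE 0.09) and Timp2 (-0.21, SE 0.09), and the limma adjusted p was 0.723 for each. The median over the 36 members was -0.17 and over all genes tested -0.04. Below 0 were 26 of 36 members and 59.3% of all genes tested. The departure from additivity, combination minus anti-PD-1 less palbociclib minus vehicle, gave 0 called members (0%) and 1 at the unadjusted level (5.73%). That member was Mmp27, with a difference of -1.45 (SE 0.52, limma adjusted p 0.866).

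The combination arm was compared with vehicle as the joint treatment. The median difference of the members was -0.28, against 0.03 over all genes tested. Below 0 were 27 of 36 members and 46.3% of all genes tested. The largest differences by p were Mmp11 at -0.71 (SE 0.19, limma adjusted p 0.184), Mmp14 at -0.45 (SE 0.13, adjusted p 0.194), Adamts10 at -0.61 (SE 0.19, adjusted p 0.203) and Mmp9 at -1.51 (SE 0.51, adjusted p 0.213). In the combination arm 4 members had all 3 tumors below all 3 vehicle tumors, namely Mmp14, Mmp11, Adamts10 and Adamts6, and 0 had all 3 above, while 22.5% of all genes tested did not overlap in either direction. An exact permutation test of 3 tumors against 3 cannot go below 0.1. These comparisons share the vehicle tumors, and the separate drug comparisons against vehicle gave Mmp14 differences of -0.28 (95% interval -0.57 to 0.00) for palbociclib and -0.29 (-0.58 to 0.00) for anti-PD-1.

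Mmp8, Mmp9 and Mmp12 were high in the tumors with the most neutrophil transcripts. The sum of 6 neutrophil markers, led by S100a8 and S100a9, was 31.7, 62.3 and 539 FPKM in vehicle tumors, 33.2, 26.8 and 15.3 FPKM with palbociclib, 47.5, 276 and 245 FPKM with anti-PD-1, and 14.2, 36.0 and 88.8 FPKM with the combination. All 6 markers were detected, and Ly6g was the only one at 0 in a tumor, vehicle 2. Vehicle 3 had both the highest sum and the highest Mmp8, Mmp9 and Mmp12, and combination 1 had both the lowest sum and the lowest values of these genes. The pattern was not particular to them. Mmp13 was also highest in vehicle 3 and lowest in combination 1, and Mmp3, Mmp10 and Mmp1b were also highest in vehicle 3. The neutrophil markers themselves were lower in the palbociclib effect without passing the test, with S100a9 at -2.27 and a limma adjusted p of 0.143. The sum of 6 macrophage markers was lowest in the 3 tumors with the most neutrophil marker RNA, at 110 FPKM in vehicle 3, 127 FPKM in anti-PD-1 2 and 143 FPKM in anti-PD-1 3. By arm it ran from 110 to 578 FPKM with vehicle, 127 to 441 FPKM with anti-PD-1, 460 to 758 FPKM with palbociclib and 334 to 767 FPKM with the combination, and the vehicle range overlapped all the others. Mmp12, known from macrophages, was thus highest in the tumor with the least macrophage marker RNA. The part of either cell type in these values was not tested.

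**Figure D5:**
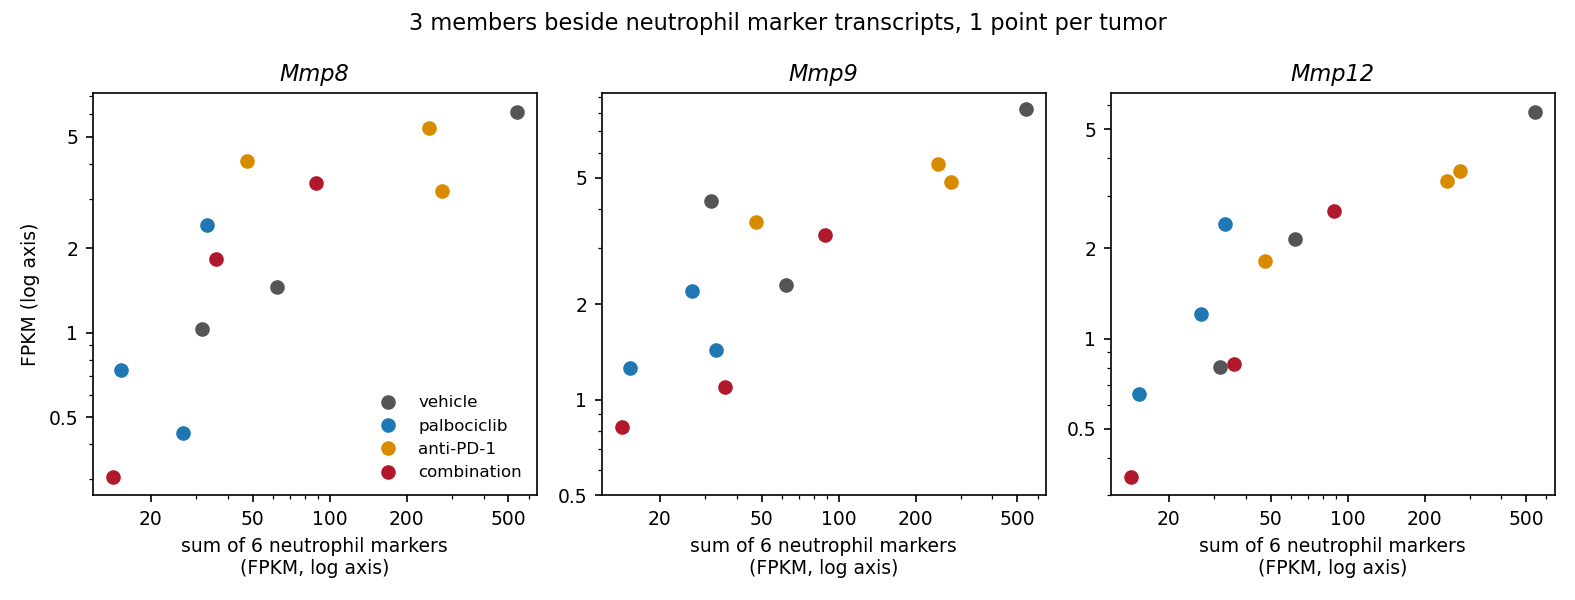
FPKM of Mmp8, Mmp9 and Mmp12 against the summed FPKM of 6 neutrophil markers, both on log axes, 1 point per tumor and colored by arm. Vehicle 3, at a marker sum of 539 FPKM, is at the top right of each panel and combination 1, at 14.2 FPKM, at the bottom left.

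The genes that work beside these enzymes were examined as 4 lists, and 0 of their members were called by limma in the palbociclib effect, the anti-PD-1 effect or the combination against vehicle. The highest genes of the list of activators and cell-surface controls were Bsg, a glycoprotein that induces Mmps, at 129 FPKM and Plau, the urokinase that starts plasmin formation, at 32.0 FPKM.

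Substrates were led by Col3a1 at 241 FPKM and Sparc at 114 FPKM, while Acan was listed at 0 in every tumor. Of the 14 tested substrates 4 had an unadjusted p under 0.05 in the palbociclib effect, all lower, compared with 20.5% of all genes tested in either direction, and the list's median was 0.06. They were the basement membrane chains Col4a1 (difference -0.45) and Col4a2 (-0.36), the laminin chain Lamc1 (-0.28) and fibronectin, Fn1 (-0.46), with limma adjusted p from 0.137 to 0.239. Of 4 endothelial markers, Cdh5 differed by -0.73 and Pecam1 by -0.62 in the same effect, and Kdr by 0.25 and Tek by 0.23, with limma adjusted p from 0.110 to 0.617. Their sum was 9.88 to 13.3 FPKM in the 6 palbociclib-treated tumors and 12.5 to 27.6 FPKM in the other 6, and the part of endothelial cells in these values was not tested. The collagen maturation list of 11 genes, led by P4hb at 287 FPKM and the collagen chaperone Serpinh1 at 224 FPKM, had 2 higher and 2 lower at that level, against the same 20.5%. Higher were the lysyl hydroxylase Plod3 (0.15) and the elastic fiber protein Fbln5 (0.69), and lower were the prolyl hydroxylase subunit P4ha2 (-1.13) and the lysyl hydroxylase Plod2 (-0.81), with limma adjusted p from 0.148 to 0.212. The 10 transcription factors that bind AP-1, ETS or Runx sites were led by Fosl1, an AP-1 subunit, at 142 FPKM with a range of 95.3 to 194 FPKM, and by Jun at 61.2 FPKM. Of those 10, 1 had an unadjusted p under 0.05 in the palbociclib effect, a share below that of all genes, and it was Ets1 at -0.26 (SE 0.06, limma adjusted p 0.0894). Fosl1 was highest in anti-PD-1 2 at 194 FPKM and in vehicle 3 at 183 FPKM, and lowest in vehicle 1 at 95.3 FPKM.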

How the data were processed

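RNA from 12 tumors was sequenced on an Illumina NovaSeq, and the authors deposited a table of FPKM per gene for each tumor. Per the labels, HISAT2 and GRCm38 (mm10) were used, while the counting tool, annotation, versions and strand setting are not given in the sources used here. Depth was estimated from the steps between low FPKM values. Of 34745 entries, 67 repeated symbols kept the highest mean. Genes with a mean of at least 0.1 FPKM were fitted as log2(FPKM + 0.1) with 1 mean per arm and a variance trend in limma 3.58.1 (R 4.3.3), with Benjamini-Hochberg adjustment over 15350 genes and a threshold of 0.05. The script was tested on simulated data. Exact permutation tests used Python 3.11.15. Positions came from GENCODE M21 (51 of 51 members matched) and promoters from RefSeq (33 of 51).

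Members, role groups and gene lists were chosen with earlier results of these data known. Given tumor by tumor were the highest of each role group by mean and its smallest p in the palbociclib effect at a mean of at least 0.5 FPKM; Lox and Col1a1 were added after their values were seen. From the other lists the highest by mean were named, and those at an unadjusted p under 0.05 were added after their values were seen. Alternatives were pseudocount, filter, scaling, variance trend, replicate block, arms fitted and each tumor left out. A refit without palbociclib 1 and 2 and combination 1 and 2, high in other-tissue markers, was chosen after seeing the data. Palbociclib 3, high in muscle markers, and combination 3 each stayed as the only tumor of the arm and were assumed to vary like the others. Some results on genes outside the members are not reported here.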

Additional observations from a re-analysis of the deposited data

How the results depend on the processing

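The count of members called stayed at 0 in all 8 contrasts under every processing alternative and left-out tumor, with 1 exception. In the palbociclib effect the leave-one-out range was 0 to 1, and the 1 was Mmp9 without anti-PD-1 replicate 1. Over all genes, the palbociclib effect gave 48 calls (38 higher, 10 lower), and this count moved with the processing. It was 11 with no filter beyond a value above 0, 11 with upper quartile scaling (6 higher, 5 lower), 0 without a variance trend and 129 with the replicate block. Quantile normalization gave 44 calls (28 higher, 16 lower), and 10 members at an unadjusted p under 0.05, of which 1 was higher. Leaving out 1 tumor gave 0 to 772 calls. It was 695, 0 and 10 without vehicle 1, 2 and 3, then 1, 19 and 0 without palbociclib 1, 2 and 3. Without anti-PD-1 1, 2 and 3 it was 772, 0 and 0, and without combination 1, 2 and 3 it was 0, 262 and 2. The cause was not tested. Over all arms 7 of 18 same-number pairs correlated above 0.1 (range -0.213 to 0.453). Some different-number pairs did as well, such as vehicle 1 with palbociclib 3 at 0.309. Between vehicle and anti-PD-1 alone all 3 same-number pairs did, at 0.453, 0.128 and 0.247, and the anti-PD-1 versus vehicle contrast had 0 genes called by limma with or without the replicate block (1274 and 1289 at an unadjusted p under 0.05). The replicate block changed no call among the members in any of the 8 contrasts. Whether the replicate numbers mark a shared batch was not tested. Depth and 3 tumors per arm limit low genes most. Mmp1a, with 59 estimated fragments over all tumors, and Mmp1b, with 205, carry few reads.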
